A study of Mus musculus with 18 samples.

Results

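The enzymes described here attach a soluble group to drugs, hormones, bilirubin, bile acids and reactive metabolites, in 3 gene families: the UDP-glucuronosyltransferases (Ugt), the cytosolic sulfotransferases (Sult) and the cytosolic glutathione S-transferases (Gst). Members were all protein-coding genes of the deposited count table whose symbols begin with Ugt1a, Ugt2a, Ugt3a, Ugt2b, Sult and a digit, or Gst followed by a, k, m, o, p, t or z and a digit. This found 64 of 53379 genes, of which 21 were Ugt, 21 Sult and 22 Gst. The rule reads symbols and gene type alone. A filter on low counts was passed by 50 members in at least 1 tissue and by 31 in all 3 tissues, while 14 passed it in none, 2 of them (Ugt2a1 and Ugt2a2) with 0 counts in all 18 libraries.

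Ugt enzymes sit in the endoplasmic reticulum and transfer glucuronic acid from UDP-glucuronic acid, which the enzyme Ugdh makes. Sult enzymes work in the cytosol and transfer sulfate from the donor PAPS, which the Papss enzymes make, with Sult1 enzymes acting mostly on phenols, catechols and estrogens and Sult2 enzymes on hydroxysteroids and bile acids. Gst enzymes join the tripeptide glutathione to electrophiles. Hepatocytes are the main site of all 3 reactions, enterocytes carry out much of the first pass, and the products leave the cell through Abcc and Abcg2 transporters.

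The libraries were made from female BALB/cJ mice, an inbred strain, irradiated at a lethal dose when 6 to 8 weeks old. Controls (BM) received 10000000 bone marrow cells, and the other group (BMT) received the same number of marrow cells and 1000000 T cells, so irradiation and marrow were common to both. RNA was taken on day 7 from bulk liver and from isolated epithelium of both parts of the intestine, with 3 BM and 3 BMT libraries for each of the 3 tissues. The sample descriptions carry 6 numbers, recurring in each tissue, which were taken as 6 mice. The labels do not state that replicates are separate animals, and p-values then reflect only the scatter among these libraries, which may be technical. The sources used here do not give the donor strain.

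Titles and codes of the intestinal libraries disagree. Code SI belongs to the libraries titled large intestine and code LI to those titled small intestine. In BM libraries the summed level of 5 Paneth cell markers, a cell type of the small intestine, was 11069 to 17225 CPM (counts scaled to a library total of 1000000) with code SI and 129 to 148 CPM with code LI. The summed level of 7 colonocyte markers was 1630 to 2150 CPM with code SI and 15871 to 17420 CPM with code LI. The markers thus went against the titles, and both names are kept below. Depth was 18845483 to 25610937 counts per library, so the floor of 3 counts lay between 0.117 and 0.159 CPM, and floors cover counting error only. Mitochondrial genes took 2.77 to 10.7% of all counts, and within a tissue every BMT library had a smaller share than any BM library. All 8 T cell markers were called higher in BMT in every tissue, with summed levels of 3.08 to 12.7 CPM over all BM libraries and 54.2 to 458 CPM over all BMT libraries. In bulk samples, fewer cells of a type and less RNA per cell cannot be told apart.

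Several members share sequence, which sets what a count can mean. The 9 Ugt1a genes lie in 1 cluster on chromosome 1 (GRCm38, 88055388 to 88220002, plus strand). Each has its own first exon, which encodes the substrate-binding part, and all end in the same 4 exons. The end of the first exon is shown for 4 of them, because these letters are what distinguishes their transcripts. The 45 bases in lower case belong to each gene alone and the 30 bases in capitals open the shared exons, from position 88215044 to 88215073. The lower-case letters end at position 88212871 for Ugt1a1, 88139331 for Ugt1a6a, 88095978 for Ugt1a7c and 88071678 for Ugt1a9.
Ugt1a1: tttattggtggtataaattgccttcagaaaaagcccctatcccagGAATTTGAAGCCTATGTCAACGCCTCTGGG
Ugt1a6a: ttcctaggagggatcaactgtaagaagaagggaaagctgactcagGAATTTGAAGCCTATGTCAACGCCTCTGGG
Ugt1a7c: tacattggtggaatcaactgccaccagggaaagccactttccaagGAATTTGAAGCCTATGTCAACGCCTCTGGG
Ugt1a9: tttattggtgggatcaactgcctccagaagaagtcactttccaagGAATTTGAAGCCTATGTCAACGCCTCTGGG
Of the 45 bases, Ugt1a6a shares 23 with Ugt1a1, Ugt1a7c 33 and Ugt1a9 36. Over windows of 100 bases, the read length, 57.2% of the Ugt1a1 transcript was found unchanged in other Ugt1a genes, and 58.5% of that of Ugt1a9. Other close pairs were Gsta1, with 80.6% of its windows shared with Gsta2, Gstp2 with 46.9% shared with Gstp1, and Ugt2a1 with 94.9% shared with Ugt2a2. Levels and changes of these genes are therefore uncertain as single-gene values. Ugt1a10 had 0 CPM in all 6 code LI libraries in which Ugt1a7c had 68.1 to 215 CPM, so reads of the shared exons had not been counted for every gene of the cluster.

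**Figure D1:**
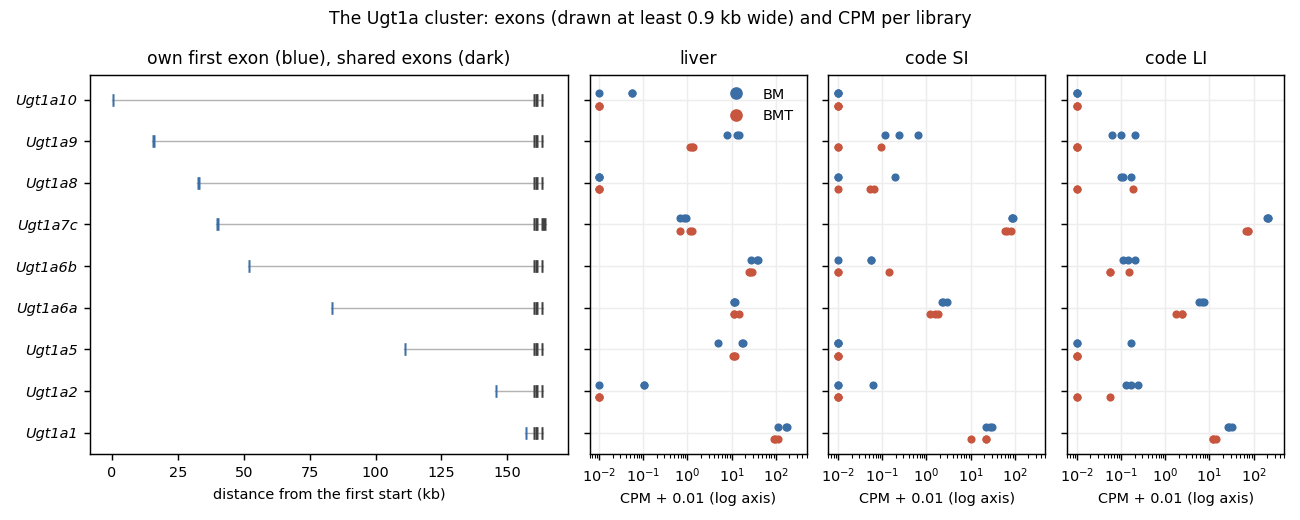
The Ugt1a cluster. Left, exons of each gene against the distance from the first start in kb, with the own first exon in blue and the 4 shared exons in dark grey (drawn at least 0.9 kb wide). Right, CPM + 0.01 per library on a log axis for BM (blue) and BMT (red), with the highest CPM for Ugt1a1 in liver and for Ugt1a7c in both epithelia.

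The liver was the richest source. Members together made up 1.36% of counts in liver BM libraries, against 0.214% in code SI (titled large intestine) and 0.383% in code LI (titled small intestine). On the scale of CPM per kb of exon, Gstm1 led the liver BM libraries at 1734 ± 162 CPM per kb (SD, n = 3), followed among the family leaders by Sult2a1, a hydroxysteroid sulfotransferase, at 804 ± 115 and Ugt2b5 at 342 ± 91.4. Ugt2b36 stood at 336 ± 54.5 CPM per kb, within the spread of Ugt2b5. Counted over only those exonic bases that no other gene overlaps, Ugt1a1, the bilirubin-conjugating enzyme, came to 398 CPM per kb, and to 168 CPM per kb when only overlaps on the same strand were removed, so its place above or below Ugt2b5 depends on the counting. In both epithelia Gstp1 led the Gst genes (272 ± 22.5 CPM per kb with code SI and 239 ± 16.6 with code LI) and Ugt2b34 the Ugt genes (80.2 ± 9.37 and 166 ± 20.2). The leading Sult gene was Sult1d1, which sulfates catecholamines, with code SI (62 ± 3.36 CPM per kb) and the phenol sulfotransferase Sult1a1 with code LI (405 ± 74.9). The Sult2a genes were liver genes here, with 7 of them tested in liver and none in either epithelium.

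With T cells in the graft, the total output of the families was lower in liver and code LI. The Gst genes summed to 7670, 7670 and 8602 CPM in the 3 liver BM libraries and to 3667, 2871 and 3584 CPM in the 3 BMT libraries. The Ugt genes summed to 3735, 3423 and 2366 CPM against 1363, 1071 and 1373 CPM, so that all BMT values lay below all BM values for both families. The Sult genes went from 2452 ± 236 to 1887 ± 166 CPM (SD, n = 3), a smaller difference. In code LI the Ugt sum went from 1064 ± 108 to 357 ± 25 CPM and the Sult sum from 1417 ± 134 to 396 ± 40.5 CPM, while the Gst sum went from 1351 ± 36.7 to 911 ± 29.3 CPM. In code SI the Ugt and Sult sums overlapped between the groups, at 561 ± 47.4 and 488 ± 119 CPM for Ugt and at 459 ± 18.1 and 476 ± 107 CPM for Sult. The Gst sum there was 1116 ± 146 CPM in BM and 850 ± 86.9 CPM in BMT. These sums are descriptions and follow the few most abundant members.

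**Figure D2:**
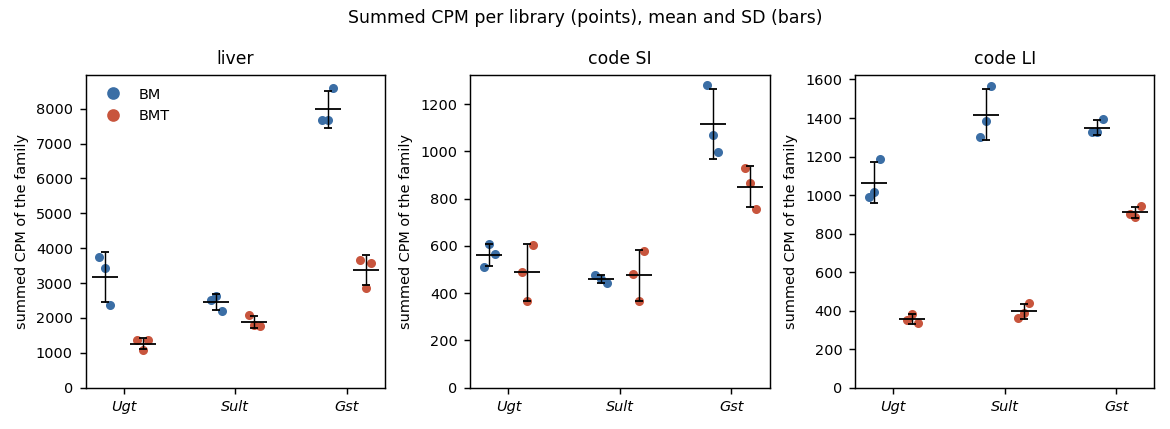
Summed CPM of the Ugt, Sult and Gst genes per library (points; BM blue, BMT red) with mean and SD (black), for liver, code SI and code LI. The groups separate in liver and code LI for each family and overlap in code SI for Ugt and Sult.

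The first comparison asked how these genes differed in bulk liver when T cells accompanied the marrow. Of 47 members tested, 24 were lower in BMT, 1 was higher and 22 did not pass (edgeR quasi-likelihood test, Benjamini-Hochberg adjusted p under 0.05 over all genes). Among all 14134 genes tested in liver, 3.35% were lower and 7.46% higher. The median log2 fold change of the tested members was -0.98, against -0.02 over all genes. The falls were spread over the families, with 12 of 21 Gst genes, 8 of 14 Ugt genes and 4 of 12 Sult genes lower. Each ± on a log2 fold change below is a standard error, on CPM an SD with n = 3, and each adjusted p comes from this test.

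**Figure D3:**
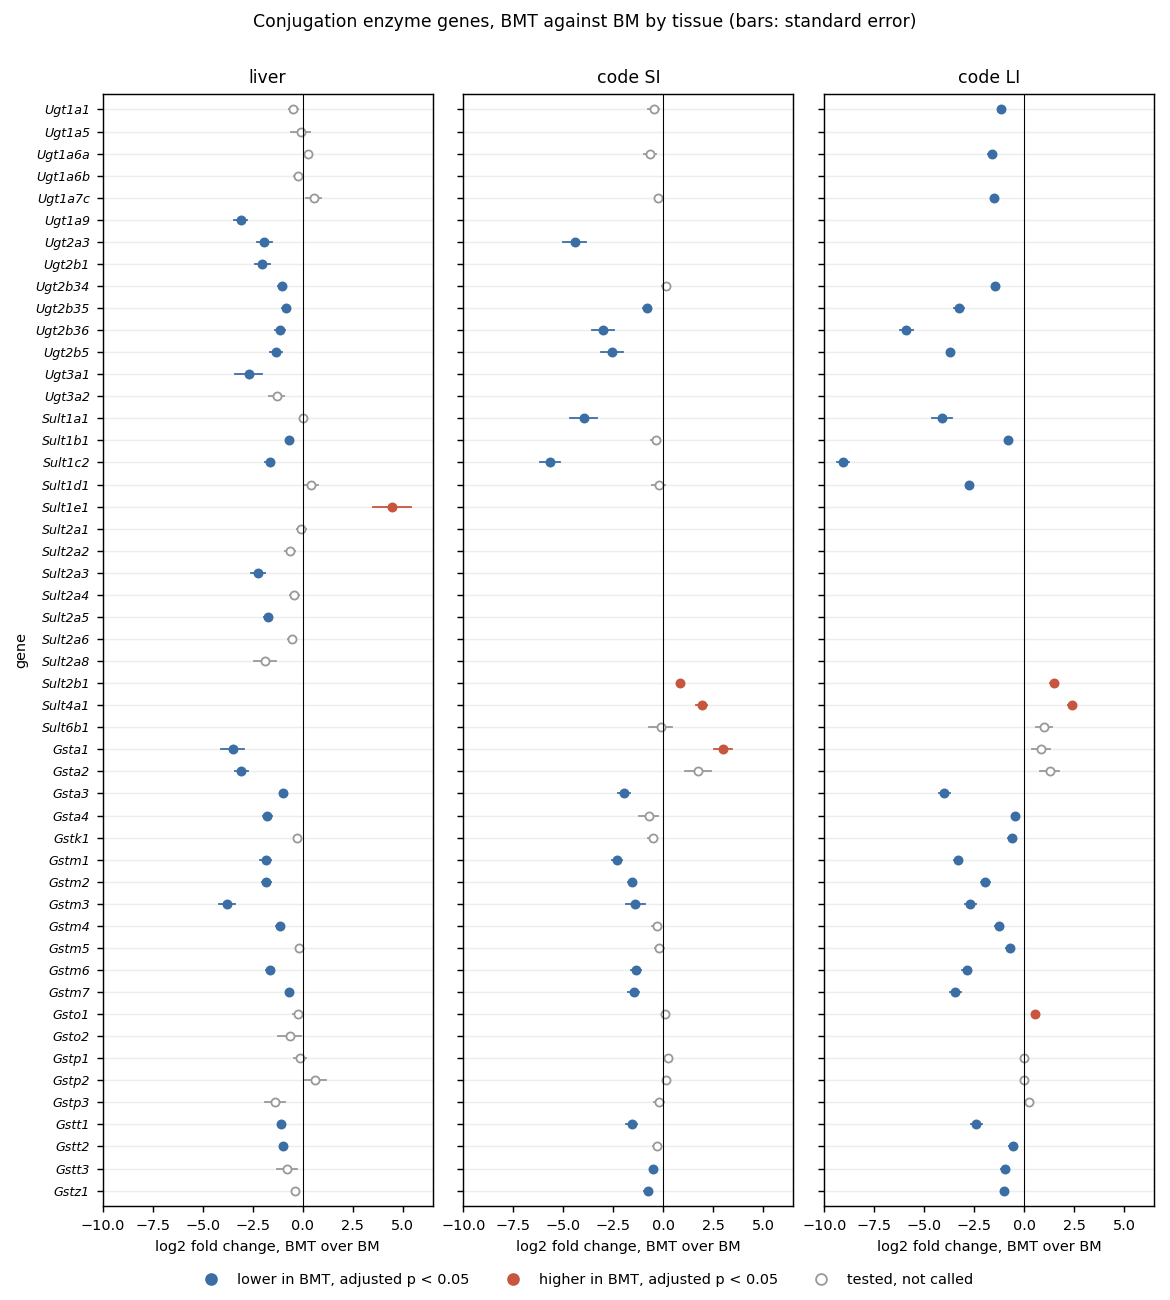
Log2 fold change of BMT over BM (points) with its standard error (bars) for the 50 members tested in at least 1 tissue. Blue points were called lower (24 in liver, 15 in code SI, 25 in code LI), red points higher (1, 3 and 3), and open grey points were tested without a call; a gene with no point in a panel was not tested there.

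Among the Gst genes, the liver calls lay in the alpha, mu and theta classes. All 4 Gsta genes and 6 of 7 Gstm genes fell, with median log2 fold changes of -2.42 and -1.62. The 7 Gstm genes lie side by side on chromosome 3 (GRCm38, 107895821 to 108044894). Gstm1 (ENSMUSG00000058135.12), the most abundant member, had 2780, 2304 and 2577 CPM in BM and 740, 392 and 746 CPM in BMT. The groups stood far apart, and the log2 fold change was -1.85 ± 0.28 (adjusted p = 0.00731). Gstm3 (ENSMUSG00000004038.9) fell furthest among the mu genes, from 97.7, 85.1 and 145 CPM to 7.58, 3.36 and 10.2 CPM (log2 fold change -3.77 ± 0.38, adjusted p = 0.00212). Gstm2 went from 447 ± 102 to 112 ± 24.4 CPM (adjusted p = 0.00324) and Gstm6 from 138 ± 1.57 to 39.8 ± 11.1 CPM (adjusted p = 0.00292). Gstm5 did not pass, with 16.9 ± 0.847 and 13.2 ± 1.99 CPM and an adjusted p of 0.534.

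Gsta2, an alpha-class enzyme, stood at 48.5, 47.8 and 55.5 CPM in BM and at 7.91, 4.17 and 3.54 CPM in BMT, a log2 fold change of -3.07 ± 0.32 (adjusted p = 0.00222). Gsta4, which acts on the lipid peroxidation product 4-hydroxynonenal, had 153, 142 and 179 CPM in BM against 46.8, 27.5 and 48.3 CPM in BMT (log2 fold change -1.77 ± 0.23, adjusted p = 0.00395). No BMT library reached the lowest BM library for either gene. The abundant Gsta3 had 1656, 1924 and 1831 CPM against 853, 801 and 768 CPM, and its call (adjusted p = 0.0119) was lost when BM replicate 2 (0.0528), BMT replicate 2 (0.0689) or BMT replicate 3 (0.0517) was left out. Single libraries also ended the calls of Gsta1 (0.0565 without BMT replicate 2), Gstm4 (0.059 without BM replicate 2) and Gstm7 (0.0717 to 0.0964 with BM replicate 2 or either of BMT replicates 1 and 2 removed). The theta-class genes Gstt1 and Gstt2 each fell about as far as Gsta3, Gstt1 from 405 ± 43.8 to 169 ± 13.6 CPM (-1.08 ± 0.14, adjusted p = 0.00369) and Gstt2 from 155 ± 2.65 to 68.6 ± 5.35 CPM (-1.0 ± 0.13, adjusted p = 0.00415). The pi, omega, kappa and zeta classes held no liver call. Gstp1, a pi-class enzyme, was at 444, 527 and 977 CPM in BM and 621, 372 and 566 CPM in BMT, so its groups overlapped (adjusted p = 0.851). Gstp3, of the same class, had 24.6 to 85.0 CPM in BM against 8.52 to 23.7 CPM in BMT, without overlap (-1.38 ± 0.48, adjusted p = 0.117). It passed with DESeq2 (0.0191), a replicate block (0.0138), no low-count filter (0.015) and the fit of all 18 libraries (0.0167). Gstz1 passed with library size alone (0.0374).

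In the Ugt family, all 5 tested Ugt2b genes fell in liver, while 1 of 6 Ugt1a genes did. Ugt2b5 (ENSMUSG00000054630.7, chromosome 5, 87124960 to 87140318), the Ugt gene with the highest level per kb of all its exons, had 762, 701 and 442 CPM in BM and 268, 171 and 246 CPM in BMT. The lowest BM library was BM replicate 3, and it still exceeded every BMT library. Its log2 fold change was -1.31 ± 0.29 (adjusted p = 0.0289), and the call was lost without any 1 of 5 libraries (adjusted p 0.056 to 0.117; it held without BM replicate 3). The other 4 tested Ugt2b genes had log2 fold changes of -2.01 to -0.83, and none of these 4 passed when BM replicate 2 (adjusted p 0.0578 to 0.0983) or BMT replicate 2 (0.0828 to 0.116) was left out. Ugt1a9 (ENSMUSG00000090175.1), which glucuronidates phenols, was the Ugt1a gene that fell, from 13.4, 14.4 and 7.78 CPM to 1.34, 1.26 and 1.13 CPM (-3.08 ± 0.32, adjusted p = 0.00222). Ugt1a1, whose first exon lies nearest the shared exons, did not pass, at 173, 177 and 110 CPM in BM against 110, 98.5 and 89.4 CPM in BMT (-0.46 ± 0.24, adjusted p = 0.284), and it passed without BM replicate 3 (adjusted p = 0.0225).

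Of 12 Sult genes tested in liver, 4 were lower and 1 higher. Sult2a5 (chromosome 7, 13623967 to 13670807) had 139, 106 and 102 CPM in BM against 34.9, 29.0 and 29.9 CPM in BMT (-1.71 ± 0.20, adjusted p = 0.00305), and Sult2a3 in the same cluster also fell, from 91.2 ± 22.9 to 17.2 ± 8.29 CPM (adjusted p = 0.00751). The most abundant gene of that cluster, Sult2a1, was at 869, 905 and 686 CPM in BM and 815, 700 and 565 CPM in BMT. Its groups overlapped (-0.06 ± 0.24, adjusted p = 0.892), and 4 more Sult2a genes did not pass. Of these, Sult2a8 stood at 129 ± 67.8 CPM in BM against 31.8 ± 17.2 CPM in BMT (-1.88 ± 0.54, adjusted p = 0.0657) and was called lower in 7 alternatives, among them DESeq2 (0.0467) and the fit of all 18 libraries (0.0326). Sult2a2 and Sult2a6 were called lower with a replicate block (both 0.0468), with library size alone (0.0372 and 0.0328) and without BM replicate 3 (0.0189 and 0.0165), the last of which also gave a call for Sult2a4 (0.0332). Between 5.76 and 34.6% of the windows of Sult2a1, Sult2a2, Sult2a4 and Sult2a5 were found in other genes, and the only members among those were of these 4. Sult1c2 fell from 55.8, 41.4 and 64.9 CPM to 10.4, 15.2 and 20.5 CPM (-1.65 ± 0.23, adjusted p = 0.00544). Sult1a1, the second most abundant Sult gene per kb, had 774 ± 86.7 CPM in BM against 687 ± 88.7 CPM in BMT (adjusted p = 0.993). Sult1e1, the estrogen sulfotransferase, was the 1 member called higher, at 0.226, 0.546 and 0.652 CPM in BM against 19.4, 6.20 and 1.70 CPM in BMT (4.49 ± 0.95, adjusted p = 0.0233). That call was lost when BM replicate 1 (adjusted p = 0.0572), BM replicate 2 (0.0879) or BMT replicate 2 (0.0611) was left out, and with the libraries of lane L002 alone (0.0758).

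Most general hepatocyte markers were not called beside these falls. Of 8 general hepatocyte markers, 1 was higher and none lower by the edgeR test, with summed levels of 115080 to 175300 CPM in BM and 113470 to 135600 CPM in BMT. Of 8 markers of hepatocytes around the central vein, 1 was lower, Cyp1a2, from 516 ± 67.7 to 101 ± 40.7 CPM, with sums of 3236 to 7018 and 2615 to 4196 CPM. Of 7 markers of hepatocytes near the portal vein none was called, and all 8 neutrophil markers were higher. The part of zone or of incoming cells in the liver falls was not tested. The size of the liver count depends on single libraries, since 12 of the 24 lower calls held when each library was left out in turn, and 13 members were lower without BM replicate 2 or without BMT replicate 2. With library size alone in place of TMM scaling, the median of all liver genes moved by -0.18 on the log2 scale and 29 members were lower, so liver folds are about that much smaller here than the CPM ratios.

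In epithelium of code SI (titled large intestine), 15 of 35 tested members were lower in BMT and 3 were higher. Among all 14621 genes tested there, 11.8% were lower and 11.6% higher, and the median log2 fold change was -0.54 for members and 0.02 for all genes. Falls were again found in the mu-class Gst genes (5 of 7, with Gstm3 lost on leaving out any 1 of 4 libraries, adjusted p up to 0.167) and the Ugt2b genes (3 of 4), and none of 3 Ugt1a genes passed. Gstm2 had 146, 114 and 104 CPM in BM against 36.2, 43.5 and 38.1 CPM in BMT (-1.58 ± 0.18, adjusted p = 0.000118). Gstm1 had 153, 122 and 110 CPM against 37.6, 21.9 and 16.1 CPM (-2.32 ± 0.27, adjusted p = 0.000159). Neither gene overlapped between the groups. Lower levels of the same kind were seen for Gstm6 (10.6 ± 1.83 to 3.96 ± 0.735 CPM, adjusted p = 0.00201), Gsta3 (16.3 ± 6.6 to 4.09 ± 0.909 CPM, adjusted p = 0.00121) and Gstt1 (9.38 ± 2.31 to 3.04 ± 0.407 CPM, adjusted p = 0.00185). Gstz1, which also isomerises maleylacetoacetate in tyrosine breakdown, went from 59.7 ± 3.19 to 33.5 ± 5.72 CPM (-0.78 ± 0.17, adjusted p = 0.00636).

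Sult1a1 was low in code SI to begin with, at 21.8, 19.8 and 5.78 CPM in BM, and had 0.212, 0.515 and 2.06 CPM in BMT (-3.99 ± 0.68, adjusted p = 0.00178). Sult1c2 fell from 9.91, 9.5 and 5.32 CPM to 0.0531, 0.0858 and 0.3 CPM, the last 3 values standing for 10 counts in all (-5.66 ± 0.51, adjusted p = 2.63e-05). Ugt2b36 went from 11.6, 16.6 and 13.2 CPM to 0.584, 0.772 and 3.39 CPM (-3.02 ± 0.53, adjusted p = 0.00202). For all 3 genes BMT replicate 3 was the highest of the BMT libraries. It also held traces of liver genes, with Sult2a1 at 0.857 CPM against 0 to 0.0429 CPM in the other 5 libraries of code SI. Whether liver RNA had any part in the values of the 3 genes was not tested. The 2 most abundant Ugt and Sult genes per kb did not pass. Ugt2b34 had 301, 378 and 359 CPM in BM against 380, 250 and 459 CPM in BMT (adjusted p = 0.719), and Sult1d1 had 151, 162 and 145 CPM against 174, 50.1 and 148 CPM (adjusted p = 0.651). Gstp1 overlapped between the groups too, at 206 ± 17 and 231 ± 22.4 CPM (adjusted p = 0.354).

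The 3 members that rose in code SI were Sult4a1, Sult2b1 and Gsta1. Sult4a1, a sulfotransferase known mainly from brain, had 2.82, 2.94 and 3.07 CPM in BM against 14.6, 11.2 and 6.51 CPM in BMT (1.91 ± 0.29, adjusted p = 0.000828). Sult2b1, which sulfates cholesterol, had 140, 128 and 138 CPM in BM against 202, 224 and 275 CPM in BMT (0.84 ± 0.17, adjusted p = 0.00474). Every BMT library lay above every BM library for both genes. Gsta1 was near 1 CPM, at 0.864, 0.543 and 0.511 CPM in BM against 8.49, 3.90 and 2.74 CPM in BMT (2.98 ± 0.46, adjusted p = 0.000897). In the same libraries 5 of 8 enterocyte markers were higher, 3 of 5 Paneth cell markers and 4 of 6 goblet cell markers were lower, and their part in these changes was not tested.

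Epithelium of code LI (titled small intestine) showed the most calls, with 25 of 34 tested members lower in BMT and 3 higher. The background was high as well, since 21% of all 14880 genes tested there were lower and 20.4% higher. Members had a median log2 fold change of -1.22, against 0.00 over all genes. All 7 tested Ugt genes, all 4 tested Sult1 genes and all 7 Gstm genes fell, with medians of -1.62, -3.43 and -2.72.

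Sult1c2 (ENSMUSG00000023122.6, chromosome 17, 53829637 to 53846339) fell furthest of all members. Its level was 27.4, 31.0 and 24.3 CPM in BM, and each BMT library held a single count (0.0447, 0.0449 and 0.0477 CPM). Summed, 1850 counts stood against 3, a ratio of rates of 599 (exact 95% interval 205 to 2909, counting error only), with an adjusted p of 4.31e-08. Sult1d1 had 474, 517 and 520 CPM in BM against 83.1, 72.7 and 68.3 CPM in BMT (-2.75 ± 0.13, adjusted p = 2.22e-07). Sult1a1 (ENSMUSG00000030711.15, chromosome 7, 126672865 to 126676432) had 537, 555 and 741 CPM against 14.4, 21.7 and 66.2 CPM (-4.12 ± 0.52, adjusted p = 0.000135). These phenol and catechol sulfotransferases had been the 2 most abundant Sult genes of this epithelium, and the groups stood far apart for both.

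Among the Ugt genes, Ugt2b5 had 49.5, 52.0 and 60.6 CPM in BM against 4.20, 3.77 and 4.39 CPM in BMT (-3.70 ± 0.17, adjusted p = 1.62e-07). Ugt2b35 went from 40.9, 35.4 and 52.0 CPM to 3.27, 3.95 and 6.01 CPM (-3.26 ± 0.26, adjusted p = 6e-06). Ugt2b34, the most abundant Ugt gene, fell less, from 651, 678 and 813 CPM to 252, 295 and 237 CPM (-1.45 ± 0.14, adjusted p = 2.08e-05). Ugt1a7c (ENSMUSG00000090124.7), the Ugt1a gene with the highest CPM in this epithelium, had 205, 207 and 215 CPM in BM against 73.0, 68.1 and 75.4 CPM in BMT (-1.52 ± 0.13, adjusted p = 7.16e-06). In each of these 4 genes the lowest BM library exceeded the highest BMT library.

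Gstm1 had 208, 202 and 221 CPM in BM against 19.1, 17.3 and 25.4 CPM in BMT (-3.33 ± 0.19, adjusted p = 5.14e-07). Gstm7 went from 14.4, 14 and 16.4 CPM to 0.895, 1.21 and 1.91 CPM (-3.46 ± 0.28, adjusted p = 6.2e-06), and Gstm6 from 18.5 ± 1.59 to 2.47 ± 0.753 CPM (-2.89 ± 0.25, adjusted p = 8.72e-06). By contrast, Gstp1, the most abundant Gst gene per kb, had 195, 171 and 176 CPM in BM against 169, 162 and 191 CPM in BMT (-0.04 ± 0.14, adjusted p = 0.838), so its groups overlapped. The other pi-class genes did not pass either, with log2 fold changes of -0.01 and 0.21. Members that rose were Sult4a1 (4.84, 4.94 and 3.44 CPM to 27.7, 22.7 and 18.5 CPM; 2.39 ± 0.21, adjusted p = 1.03e-05), Sult2b1 (51.6 ± 9.97 to 141 ± 19 CPM, adjusted p = 0.000118) and the omega-class Gsto1 (288 ± 23.5 to 412 ± 37.6 CPM, adjusted p = 0.00706). In these libraries 3 of 7 colonocyte markers were lower and 1 was higher, with sums of 15871 to 17420 CPM in BM and 10106 to 14896 CPM in BMT. All 4 tested neutrophil markers were higher. The part of cell composition in these changes was not tested.

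**Figure D4:**
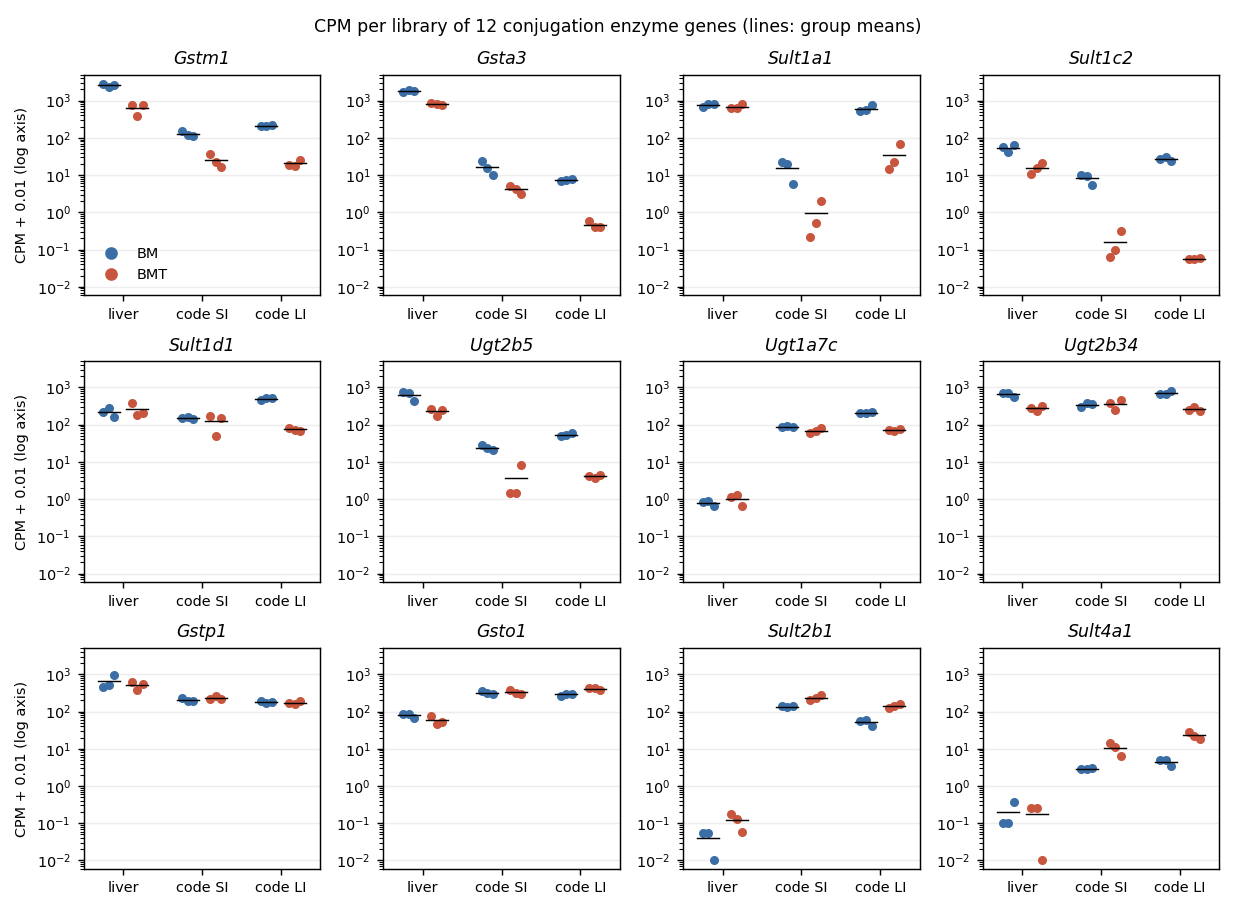
CPM + 0.01 on a log axis for 12 members in each library, by tissue, with BM in blue, BMT in red and group means as lines. Gstm1 and Ugt2b5 were lower in BMT in all 3 tissues, Sult1a1 in both epithelia with overlapping values in liver, and Sult2b1 and Sult4a1 were higher in BMT in both epithelia.

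Some lower calls recurred between tissues. Of the 15 members lower in code SI, 14 were also lower in code LI, which is 93.3% of the first list and 56% of the second. Over all genes, the lower lists of these tissues shared 1010 genes, 58.7% of the code SI list and 32.3% of the code LI list. Liver shared 16 lower calls with code LI (66.7% of the liver list and 64% of the code LI list), where all genes shared 36.6 and 5.54%. It shared 12 with code SI (50 and 80%), where all genes shared 16.9 and 4.65%. These overlaps are counts without a test. Of all tested members, 51.1% were lower in liver, 42.9% in code SI and 73.5% in code LI. The percentages of member lists other than the 66.7% lay above the share of the tissue compared. The liver list also held 5 members that were tested in neither epithelium, and Ugt2a3, which was not tested in code LI. They count in the 66.7% but could not be called in code LI. That value is therefore not set against the code LI share, which covers only members tested there. Of the 31 members tested in all 3 tissues, 11 were lower in each, beside 68 of all 12158 genes tested in all 3 (0.559%): Gsta3, Gstm1, Gstm2, Gstm3, Gstm6, Gstm7, Gstt1, Sult1c2, Ugt2b35, Ugt2b36 and Ugt2b5. Sult2b1 and Sult4a1 were higher in both epithelia and were too low in liver to be tested. Gsta1 alone was called in opposite directions, lower in liver and higher in code SI. The 13 members tested without a call in any tissue included all 3 pi-class genes and 5 Sult2a genes. Among these 13, Gstp3, Ugt3a2 and Sult2a8 passed in liver in 4, 6 and 7 alternatives.

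Whether the BMT effect depended on the tissue was tested in 1 fit over all 18 libraries with mouse number as a block, and read for members that had passed the filter in both tissues. Between the epithelia, 9 of 34 members differed, and in all 9 the effect was less negative in code SI than in code LI. Over all 17275 genes in that fit, 2.4% were called in this direction, 2.51% in the other and 4.91% in either. Unlike the members read, these genes include some that had not passed the filter in both tissues, here and in the 2 comparisons with liver below. Ugt2b35 had a log2 fold change of -0.85 in code SI and -3.26 in code LI, a difference of 2.46 ± 0.33 (adjusted p = 0.000655). Sult1d1 had -0.25 and -2.75 (difference 2.39 ± 0.42, adjusted p = 0.00483), and Gstm7 -1.48 and -3.46 (difference 2.03 ± 0.31, adjusted p = 0.00161). The count was 5 without the mouse of BM replicate 2 or the mouse of BMT replicate 1. For Sult1a1, with -3.99 and -4.12, no difference between the epithelia was called.

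Liver and code LI differed in 16 of 31 members, 14 with the more negative effect in code LI and 2 with the more negative effect in liver, where 10.6 and 8.13% of all genes were called. Sult1c2 led, at -1.65 in liver and -9.06 in code LI (difference 7.40 ± 0.52, adjusted p = 1.52e-06), followed by Gstm7 (difference 2.81 ± 0.28, adjusted p = 1.46e-05) and Gsta3 (difference 3.08 ± 0.40, adjusted p = 0.000107). The size for Sult1c2 rests on single counts in the code LI BMT libraries. The 2 members with the more negative effect in liver were Gsta1 and Gsta2, which share sequence.

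Liver and code SI differed in 10 of 32 members, 5 in each direction, against 6.32 and 8.67% of all genes. Gsta2 fell in liver (-3.07) and was not called in code SI (1.70 ± 0.65, adjusted p = 0.0834), a difference of -4.64 ± 0.47 (adjusted p = 3.58e-05). In code SI it was called higher by DESeq2 (adjusted p = 0.045), in the fit of all 18 libraries (0.0359), with a replicate block (0.0183), with no low-count filter (0.000588) and without BMT replicate 3 (0.0371). Sult1a1 had no liver change and a fall in code SI, and the effects differed by 4.33 ± 0.72 (adjusted p = 0.00126). Sult1c2 fell in both, by 4.02 ± 0.47 more in code SI (adjusted p = 8.87e-05).

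**Figure D5:**
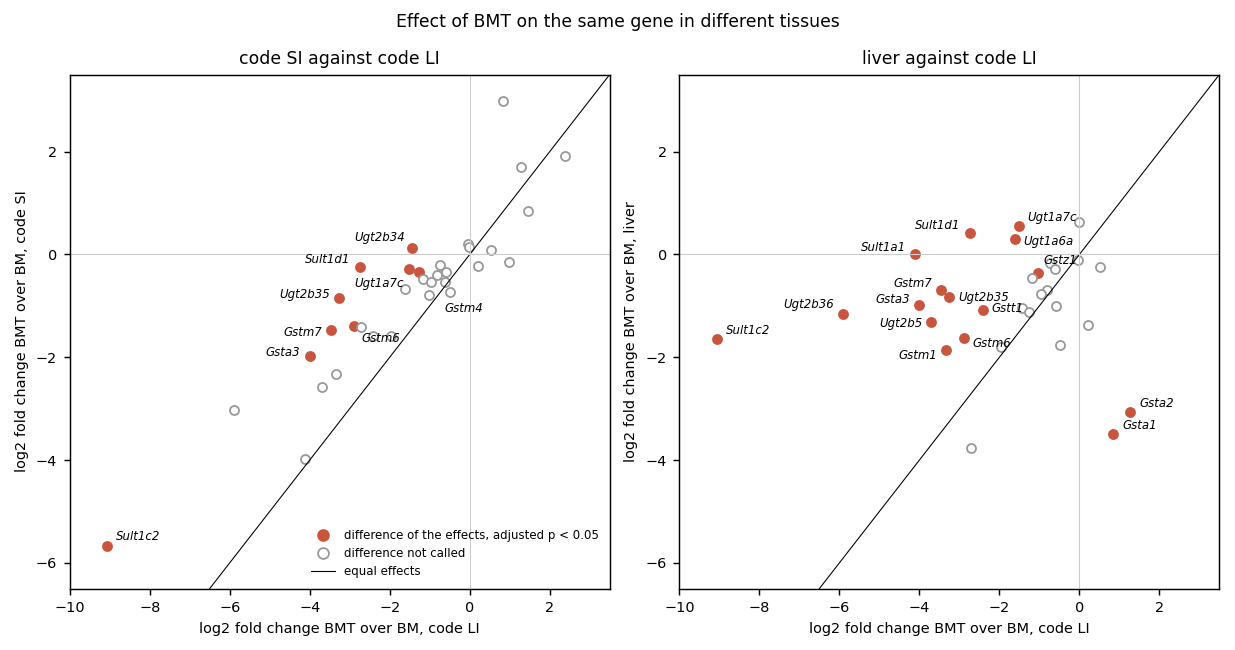
Log2 fold change of BMT over BM in code SI (left) and in liver (right) against that in code LI, 1 point per member tested in both tissues, with the line of equal effects. Red points are members whose effects differed (9 of 34 left, 16 of 31 right), and in the left panel all of them lie above the line.

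The epithelia also differed in the BM libraries alone, from mice given marrow without added T cells. Of 34 members tested within mice, 18 were lower and 5 higher in code SI than in code LI, against 22.3 and 18.8% of all 14680 genes. Sult1a1 was at 15.8 ± 8.74 CPM with code SI and 611 ± 113 CPM with code LI (log2 difference -5.42 ± 0.34, adjusted p = 3.23e-10). Gstk1, a mitochondrial and peroxisomal glutathione transferase, was at 20.1 ± 4.71 and 71.8 ± 7.92 CPM (-1.90 ± 0.15, adjusted p = 8.08e-09). Sult1d1 was at 153 ± 8.27 and 504 ± 26 CPM (-1.76 ± 0.14, adjusted p = 8.44e-09). Members higher with code SI were Ugt2a3, Sult2b1, Gsta3, Ugt2b36 and Gstp3. Of these, Gstp3 lost its call without the mouse of BM replicate 1 (adjusted p = 0.28) or BM replicate 3 (0.0787).

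Counts for the related lists stand beside the shares of all genes called in either direction, 10.8% in liver, 23.4% in code SI and 41.4% in code LI. Among genes for the supply and turnover of the donors of the 3 reactions, some were called in different directions in the 3 tissues. Of 17 such genes tested in liver, 4 were lower and 1 higher. The higher gene was Ggt1, with 4 counts in the BM libraries together and 137 in the BMT libraries. In code SI 2 of 18 were lower and 6 higher, and in code LI 11 of 18 were lower and 5 higher. Ugdh, which makes UDP-glucuronic acid, fell in liver from 294 ± 24.9 to 100 ± 18.9 CPM (-1.37 ± 0.18, adjusted p = 0.0042) and in code LI from 788 ± 29.2 to 338 ± 44.2 CPM (-1.21 ± 0.13, adjusted p = 4.15e-05). It rose in code SI from 183 ± 16 to 360 ± 92.5 CPM (1.02 ± 0.19, adjusted p = 0.00324). Papss2, a PAPS synthase, had the same signs, with -1.59 ± 0.23 in liver, 0.80 ± 0.20 in code SI and -2.17 ± 0.24 in code LI (adjusted p = 0.00621, 0.0144 and 4.92e-05). Gclc, the catalytic subunit of the first enzyme of glutathione synthesis, followed with -1.53 ± 0.30, 1.19 ± 0.21 and -0.83 ± 0.14 (adjusted p = 0.0173, 0.00237 and 0.00109).

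Other enzymes of drug conjugation and hydrolysis were lower in 4 of 18 and higher in 1 in liver, where the epoxide hydrolase Ephx1 went from 935 ± 103 to 241 ± 14.5 CPM (adjusted p = 0.00174). In code SI 3 of 13 were lower and 1 higher, and in code LI 12 of 15 were lower and none higher by the edgeR test, led by the membrane-bound Mgst1 (225 ± 17.6 to 39.8 ± 5.32 CPM, adjusted p = 7.21e-07). The transporter list held the Abcc and Abcg2 exporters and Slco genes, which are uptake carriers. Of these transporters, 1 of 11 was lower in liver, 2 of 8 in code SI and 5 of 7 in code LI, where the other 2 were higher. The liver call was Slco1a4 (262 ± 60.9 to 87.2 ± 20.3 CPM, adjusted p = 0.0179), and no listed Abcc gene nor Abcg2 was called there. The liver and code SI counts of transporters are near the shares of all genes called there. Abcg2, which exports sulfates and glucuronides into the gut lumen, was at 107 ± 5.72 and 58.7 ± 9.62 CPM in code LI (adjusted p = 0.000712). The deconjugation list had 5 matched genes: Gusb, Arsa, Arsb, Sulf2 and Naglu. Of these, 1 was lower in each tissue, and 1 in liver, 1 in code SI and 2 in code LI were higher. In liver the lower gene was Sulf2 and the higher gene Arsa, while Gusb, the host beta-glucuronidase, was not called (adjusted p = 0.231). The higher genes in code LI included Gusb, at 56.1 ± 1.03 and 91.7 ± 14.7 CPM (adjusted p = 0.00135).

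Of the regulators of these families, 1 of 13 was lower in liver, and 2 were lower and 2 higher of 15 in code SI. The liver and code SI counts are near the shares of all genes called there. In code LI 7 of 15 were lower and 1 higher, where 21% of all genes tested were lower and 20.4% higher. Nfe2l2, which encodes the oxidative stress factor Nrf2, fell from 92.6 ± 16.5 to 53 ± 2.36 CPM in liver (adjusted p = 0.033) and from 270 ± 22.6 to 127 ± 13.4 CPM in code LI (adjusted p = 8e-05). Textbook targets of Nrf2 did not move as 1 block. In code SI 7 of 10 were higher and none lower by the edgeR test, in code LI 5 were higher and 3 lower of 10, and in liver 1 of 8 was lower. In code LI Gpx2, a glutathione peroxidase of the gut, went from 407 ± 9.67 to 1467 ± 117 CPM (adjusted p = 2.05e-06) while Nqo1, a quinone reductase, went from 102 ± 2.05 to 28.9 ± 8.25 CPM (adjusted p = 2.78e-05).

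Promoter sequence was examined for letters of 3 regulators of these families in the 300 bases around the RefSeq start (250 before and 50 after, GRCm38.p6), which were found for 56 of 64 members with 67 windows. The core of the antioxidant response element that Nrf2 binds (TGACNNNGC, N being any base, both strands) was in 3 member windows (4.48%), of Gsta3, Gstm5 and Gstm7, against 12.4% of all 32851 windows. The core of the Ahr element (GCGTG, both strands) was in 13 member windows (19.4%) against 32.4%. The recognition core of Hnf1, a factor of liver and gut epithelium (GTTAAT, both strands), was in 14 member windows (20.9%) against 7.10%. The first and second motifs can share letters, and windows of neighbouring copies are not independent. The 14 genes were 7 Sult genes, 6 Ugt genes and Gsta3, and of the 12 tested in liver 6 were lower in BMT, beside 16 of 29 tested members whose windows lacked the letters. The 100 bases before the start are shown for 5 of them, with the Hnf1 core in capitals, to show where it stands in genes with different liver results. They were chosen after their values were seen and do not stand for all carriers. Ugt1a6a, Sult1a1, Sult1d1, Sult2a4 and Sult2a6 also hold the letters and were not called in liver. Ugt1a1 lies at chr1:88211859-88211958 (plus strand), Ugt1a9 at chr1:88070679-88070778 (plus), Ugt2a3 at chr5:87337196-87337295 (minus), Sult2a3 at chr7:14123049-14123148 (minus) and Sult2a5 at chr7:13623867-13623966 (plus).
Ugt1a1: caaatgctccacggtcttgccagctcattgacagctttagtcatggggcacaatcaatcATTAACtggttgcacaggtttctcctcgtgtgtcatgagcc
Ugt1a9: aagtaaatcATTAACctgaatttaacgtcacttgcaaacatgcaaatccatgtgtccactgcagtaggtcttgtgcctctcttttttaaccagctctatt
Ugt2a3: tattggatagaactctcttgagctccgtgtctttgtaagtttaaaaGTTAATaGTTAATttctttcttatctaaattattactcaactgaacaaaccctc
Sult2a3: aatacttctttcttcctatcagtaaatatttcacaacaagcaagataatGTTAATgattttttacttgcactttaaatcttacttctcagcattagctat
Sult2a5: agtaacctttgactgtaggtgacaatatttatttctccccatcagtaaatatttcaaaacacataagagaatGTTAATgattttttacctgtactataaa
The capitals begin 41 bases before the start in Ugt1a1, 91 in Ugt1a9, 54 and 47 in Ugt2a3, 51 in Sult2a3 and 28 in Sult2a5. In liver Ugt1a9, Ugt2a3, Sult2a3 and Sult2a5 fell and Ugt1a1 did not pass. The Ugt2a3 call was lost on leaving out BM replicate 2 (adjusted p = 0.0624), BMT replicate 2 (0.0674) or BMT replicate 3 (0.0521). A match of letters is a description of the sequence, and no binding was measured in these samples.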

How the data were processed

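The authors deposited 1 table of raw counts for 53379 genes and 18 libraries. Per the submitters' processing notes, the tools were FastQC 0.11.9, STAR 2.7.0e and featureCounts 1.6.3, with build GRCm38.p5. Libraries were polyA-selected, stranded and read as 100 base pairs, per the labels' protocols. The sources used here give neither strand setting nor annotation release for the counting, and the reference strain (C57BL/6J) is not that of the mice. Symbols, exons and positions came from GENCODE mouse release 21 (57 of 64 members matched with version, the rest without), and 7 pseudogenes fitting the pattern were left out.

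Each tissue was fitted alone with edgeR 4.0.16 (filterByExpr, TMM, two-sided quasi-likelihood F-test, Benjamini-Hochberg adjustment over all tested genes) in R 4.3.3. The standard error is the log2 fold change over the square root of F. CPM used total counts. Effects were compared between tissues with mouse number as a block. The pairing comes from the repeated numbers in the descriptions, and deviations of libraries of the same number correlated at -0.04 to 0.19. Alternatives included DESeq2 1.42.0, other scaling, no filter, a lane and each library left out. Scripts were tested on simulated data.

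Members and lists were chosen with earlier results of these data known. Named by rule were up to 10 called members per tissue with the smallest p and a mean of at least 5 CPM, the most abundant gene per kb of each family, 3 members per difference, and 2 genes per list. Other members and list genes given with values were chosen after their values were seen. No pair of replicates was a duplicate (chi-square per degree of freedom 8.97 to 168).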

Additional observations from a re-analysis of the deposited data

Results flagged for a closer look

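The effect of BMT differed between tissues in a test of the difference itself (edgeR interaction term, 18 libraries, Benjamini-Hochberg adjusted) for the members below, given as the difference of log2 fold changes. Between liver and code SI it was -4.64 for Gsta2, 4.02 for Sult1c2 and 4.33 for Sult1a1, where the first value stands for a more negative effect in liver. Between liver and code LI it was 7.40 for Sult1c2, 2.81 for Gstm7 and 3.08 for Gsta3, all more negative in code LI. Between code SI and code LI it was 2.46 for Ugt2b35, 2.03 for Gstm7 and 2.39 for Sult1d1, again more negative in code LI. These 9 values kept their calls in each alternative run. Groups of 3 libraries are too small for a test of single outlying samples.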

How the results depend on the processing

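Counts of called members under other settings, with the reported count first, ranged as follows when 1 library or mouse was left out. Lower calls in liver were 24 (13 to 31), in code SI 15 (13 to 16) and in code LI 25 (23 to 25). Higher calls were 1 (0 to 1), 3 (3 to 4) and 3 (3 to 3). Differences of the effect with liver lower than code SI were 5 (3 to 4) and higher 5 (2 to 8), with liver lower than code LI 2 (2 to 4) and higher 14 (12 to 14), and with code SI higher than code LI 9 (5 to 9). Without a low-count filter 5 members were higher in code SI, 5 had the lower effect in liver than in code LI, and 14 had the higher effect in code SI than in code LI. On lane L002 alone 0 were higher in liver. Library size alone, chosen after seeing the data, gave 29, 15 and 25 lower calls. Of 532 values of the named members in the single tissues, 526 stayed on their side of the threshold, 6 (all Ugt2b5 in liver) lost it and none reversed; in the fit of all 18 libraries that p was 0.0677. A replicate block on the title numbers gave 28, 15 and 25 lower calls, and same-numbered libraries correlated at -0.15 to 0.34, with 4 of 9 BM libraries closest to their own number, so they share only a number. Genes near the floor of 3 counts are limited by depth.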
